A study of Mus musculus with 22 samples.

Results

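The genes described here are a set of 36 mouse genes that are typical of macrophages and other myeloid cells and were listed by symbol. They were read on Affymetrix arrays from 1 probe set a gene, the set with the highest mean over the 22 arrays. Sets whose names end in _x_at were passed over if the gene had another set. A probe set listed for a single gene was found for 34 of the 36, out of 18193 genes so represented on the array. The eosinophil-associated ribonuclease genes Ear1 and Ear2 were not matched. The arrays held 3 samples of untreated sorted A2C12 cells, 3 of A2C12 cells that had been kept for 48 h with 100 µg/ml of a monoclonal anti-EpCAM antibody before the sort, and 16 lungs of C57BL/6 mice without transgenes, 8 labelled male and 8 labelled female. A2C12 is a lung tumour line, derived from a mouse carrying both c-myc and c-raf transgenes on the C57BL/6 background. In both cell groups the sorted fraction was the side population (SP), the cells that keep the DNA dye Hoechst out. The promoters of the transgenes, the age of the mice and whether the line is a clone are not given in the sources used here. The cell samples are preparations of 1 line, so their spread does not measure spread between tumours.

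Macrophages are resident phagocytes. In lung, alveolar macrophages clear surfactant and particles from the air spaces, and interstitial macrophages, monocytes and neutrophils lie in the tissue and its vessels. Their differentiation depends on the transcription factor PU.1, encoded by Spi1, and on signals through the receptors for the colony stimulating factors CSF1 and GM-CSF. They recognise targets through scavenger, Fc, complement and Toll-like receptors and degrade them in lysosomes. RNA of whole lung comes from all of its cell types, so fewer macrophages and less RNA per macrophage cannot be told apart in these data.

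The arrays were checked against their labels before the members were compared. On the lung arrays labelled male 3 and male 4, Xist read 1512 and 1583 and the Y-linked gene Uty read 8.27 and 9.46. Xist was 12.7 to 24.0 and Uty 722 to 1253 in the 6 other male-labelled lungs, and Xist was 1225 to 1951 in the 8 female-labelled lungs. The libraries labelled male 3 and male 4 thus went against their labels, and the counts, medians and sex differences that rest on them are given with and without them. Of 6 epithelial markers, 3 (Cdh1, Krt8 and Krt18) gave signal on the cell arrays, while Epcam itself read at most 11.1 there and at least 644 in lung. Signal here means an intensity above the 40th percentile of the array, which lay at 24.6 to 25.8 on cell arrays and at 30.1 to 33.7 on lung arrays, on at least 3 of the 6 cell arrays. The Dap control transcript (its 3′ probe set) lay between 366 and 601 in cells and reached at most 2.72 in lung. A difference in labelling between cells and lung therefore cannot be told apart from the difference between the samples.

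PU.1 binds a purine-rich core, GAGGAA, and the share of members with this core before their start is given as a description. A link between the core and the levels of Spi1 or the members was not tested. In the 250 bases before the annotated start (RefSeq, GRCm38.p6), the core stood on either strand in 16 of 27 members with a window, 59.3%, and in 25.9% of the windows of 27025 genes. The longer GAGGAAGT, which contains the core, stood in 1 member (C1qc), 3.70% against 2.79% of all genes. The C/EBP sequence TTGCNNAA stood in 6 members, 22.2% against 10.8%, and the AP-1 sequence TGANTCA in 4 members, 14.8% against 7.82%. The PPAR direct repeat stood in 0 members and in 0.0407% of all windows. These matches describe letters only, not binding, and the members with a window include Ear1 and Ear2, which had no values on the arrays. The last 100 bases before the start follow for 6 members of different roles, in the direction of the gene, with the core or its complement TTCCTC in capitals. They are the receptors Mrc1 (chr2:14229314-14229413, + strand), Clec7a (chr6:129472780-129472879, - strand) and Csf2ra (chr19:61228419-61228518, - strand), the complement chain C1qb (chr4:136886201-136886300, - strand), the integrin Itgam (chr7:128062540-128062639, + strand) and the protease Ctsk (chr3:95499110-95499209, + strand).
Mrc1: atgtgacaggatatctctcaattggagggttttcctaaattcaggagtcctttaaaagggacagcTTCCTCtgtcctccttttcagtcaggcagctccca
Clec7a: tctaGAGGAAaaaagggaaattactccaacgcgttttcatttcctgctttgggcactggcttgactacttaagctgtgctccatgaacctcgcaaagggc
Csf2ra: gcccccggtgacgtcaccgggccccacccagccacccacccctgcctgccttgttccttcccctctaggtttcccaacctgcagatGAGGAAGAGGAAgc
C1qb: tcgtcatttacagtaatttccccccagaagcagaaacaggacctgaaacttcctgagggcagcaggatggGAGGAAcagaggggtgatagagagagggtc
Itgam: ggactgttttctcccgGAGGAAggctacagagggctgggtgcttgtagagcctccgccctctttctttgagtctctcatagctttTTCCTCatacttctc
Ctsk: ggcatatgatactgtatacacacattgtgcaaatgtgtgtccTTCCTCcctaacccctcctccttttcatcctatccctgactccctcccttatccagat
Itgam and Csf2ra held 2 copies of the core in these 100 bases, and in Csf2ra the copies adjoined each other. Ctsk, whose intensity in the cells overlapped that in lung, held the core, as did C1qb and Clec7a, which were near background in the cells.

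The comparison with lung asked how the sorted tumour cells differed from normal tissue. Most of the set was lower in the cells. On the log2(intensity + 16) scale, 30 of 34 members were lower in untreated cells than in lung by at least 2-fold at an adjusted p under 0.05 (limma), and 0 were higher. Of all 15197 genes tested, 23.8% were lower and 17.8% higher by the same rule. The median difference of the 34 was -4.54, against 0.01 over all genes tested. In antibody-treated cells 30 of 34 were again lower, with 23.9% of 15138 genes lower and 17.2% higher, and the median was -4.16 against -0.01. Both comparisons use the same 16 lung arrays. Without the arrays labelled male 3 and male 4, both counts were 30 and the medians -4.39 and -4.05. The 4 that did not pass in either cell group were Msr1, Pparg, Tlr4 and Ctsk, the 4 members whose cell arrays overlapped the lung arrays on the chosen probe set. For the other 30, each of the 6 cell arrays lay below every lung array, as for 34.8% of all genes tested. Of the 34, 22 had no signal in the cells and were tested only through lung, where they are high. Csf2rb in both comparisons, and Fabp4 against untreated cells, also passed the filter only through lung. For them, fewer than 3 arrays of the cell group compared were above the 40th percentile. The counts and medians of the 34 are therefore a description. So are the differences and p-values of those 22 wherever given, of Csf2rb against lung, and of Fabp4 in untreated cells against lung. Of the 12 members with signal in the cells, 8 were lower in untreated cells and 8 in antibody-treated cells. These 8 include Csf2rb and Fabp4. The share of lower genes among all genes with signal in the cells was not counted. The counts by role and by list given below stand beside the same shares, 23.8% and 23.9% of all genes lower. Listed genes without signal in the cells were likewise tested through lung.

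**Figure D1:**
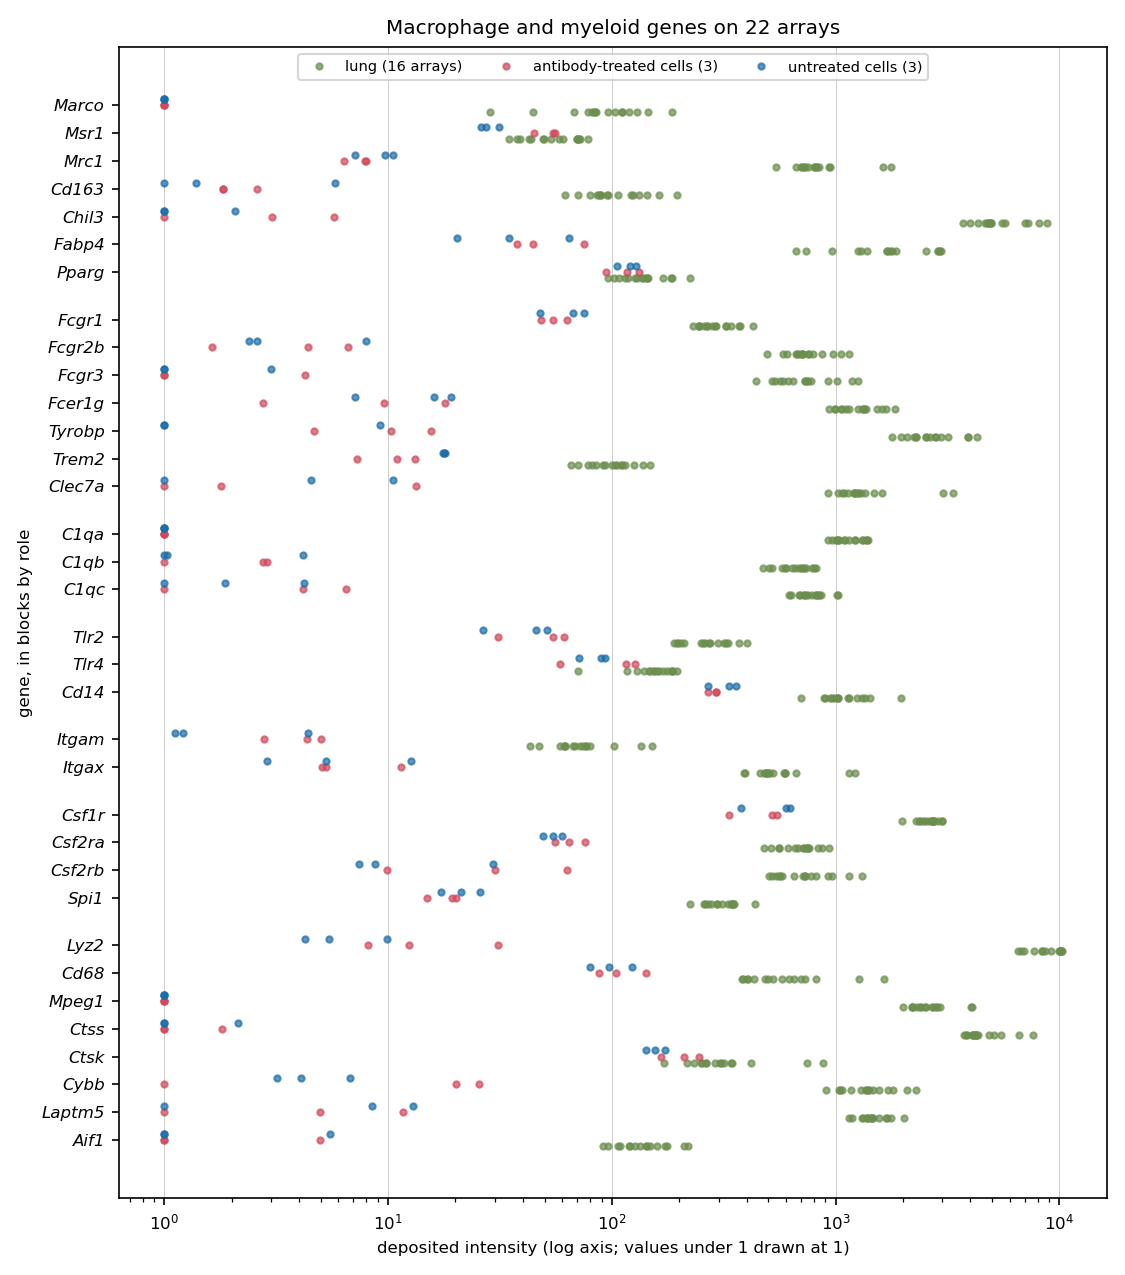
Deposited intensity of the 34 members on each array (log axis, values under 1 drawn at 1), with 3 untreated, 3 antibody-treated and 16 lung arrays as points and genes in blocks by role. The cell arrays lie to the left of all lung arrays for 30 members and overlap them for Msr1, Pparg, Tlr4 and Ctsk.

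The members fell into those near background in the cells and those with signal there. On all 6 cell arrays 20 members were below the 40th percentile, and 12 of the 34 read under 10 on all 6. Lyz2 and Cybb were above the percentile on a single array, antibody-treated 1. Signal on at least 3 of the 6 was present for 12 members, namely Msr1, Fabp4, Pparg, Fcgr1, Tlr2, Tlr4, Cd14, Csf1r, Csf2ra, Csf2rb, Cd68 and Ctsk. In lung, 33 members were above the percentile on all 16 arrays and Marco on 15. The other 22 members entered the tests against lung only through the lung arrays, and their log2 differences depend on the offset of 16. Csf2rb, and Fabp4 against untreated cells, passed only through lung too. With an offset of 1 the median of the 34 in untreated cells was -5.99, and with an offset of 64 it was -3.18. The summed intensity of the members was 1396 to 1984 on the cell arrays and 38299 to 62046 on the lung arrays.

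Of the alveolar macrophage genes for surface receptors, lipid handling and secreted proteins, 5 of 7 were lower in untreated cells and Msr1 and Pparg did not pass. Chil3, a secreted chitinase-like lectin, read 2.06, 0.0156 and 0.33 in untreated cells and 0.00791, 3.04 and 5.74 in antibody-treated cells. The lungs read 3710, 4901 and 8823 (lowest, median and highest). All cell arrays were near 0 and every lung was far above background, a log2 difference of -8.28 ± 0.17 (SE; limma adjusted p = 1.25e-22). Mrc1, the mannose receptor, read 7.08, 9.71 and 10.5 in untreated and 6.36, 7.96 and 7.90 in antibody-treated cells. Lungs read 544, 807 and 1762, and the untreated cells differed from them by -4.99 ± 0.21 (SE). The scavenger receptors Marco, for particles, and Cd163, for haemoglobin, were dim in lung too. Marco read at most 0.00476 on the cell arrays and 28.4, 90.7 and 186 in lung, and Cd163 at most 5.82 against 61.9, 95.3 and 195. Their differences were -2.66 ± 0.27 and -2.57 ± 0.18 (SE).

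Fabp4, a carrier of fatty acids that adipocytes and endothelial cells also make, kept some signal in the cells. It read 64.4, 20.4 and 34.7 in untreated cells, 75.3, 44.5 and 37.5 in antibody-treated cells, and 662, 1726 and 2946 in lung, a difference of -4.82 ± 0.36 (SE) for untreated cells. Pparg, the nuclear receptor that directs alveolar macrophage maturation and fat cell formation, was at the level of lung. Its values were 106, 120 and 128 in untreated cells, 117, 94.5 and 132 in antibody-treated cells, and 95.7, 137 and 223 in lung. The difference was 0.09 ± 0.15 (SE; 95% interval -0.22 to 0.39; limma adjusted p = 0.581), and -0.20 without normalization between arrays. Msr1, the class A scavenger receptor, read 31.4, 27.3 and 25.9 in untreated cells, 55.7, 44.9 and 54.4 in antibody-treated cells and 34.8, 55.8 and 77.9 in lung. The untreated arrays lay below every lung array and the antibody-treated arrays within the lung range. The differences from lung were -0.45 ± 0.15 and 0.21 ± 0.16 (SE), both under 2-fold, and the latter was -0.071 without normalization. Another Msr1 probe set read 9.77 to 22.7 on the 6 cell arrays, below the percentile and below every lung array (28.3 to 123), so the sets disagreed on the overlap with lung.

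The Fc receptors, their signalling adaptors and the lectin receptors were lower in untreated cells in 7 of 7 cases, with a median difference of -5.32. Among them only Fcgr1 had signal in the cells. Tyrobp (DAP12) and Fcer1g (the common gamma chain) are adaptors that carry activating receptors. Tyrobp read 0.504, 9.16 and 0.0273 in untreated cells, 15.6, 4.66 and 10.3 in antibody-treated cells and 1784, 2591 and 4291 in lung. The cells lay at background and the groups were far apart, a difference of -7.11 ± 0.18 (SE; limma adjusted p = 9.77e-21). Fcer1g read at most 19.2 in the cells and at least 936 in lung. Clec7a (Dectin-1), a receptor for beta-glucan, read at most 13.3 in the cells and at least 924 in lung, with differences of -5.32 ± 0.19 and -6.01 ± 0.28 (SE).

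Fcgr2b, the inhibitory Fc receptor, and Fcgr3, the low-affinity activating one, lie near Fcer1g on chromosome 1 (chr1:170960558-170976071, chr1:171051169-171065915 and chr1:171229572-171234349, GRCm38.p6). Fcgr2b read at most 8.00 and Fcgr3 at most 4.24 in the cells, against at least 495 and 439 in lung, with differences of -5.15 ± 0.16 and -5.40 ± 0.18 (SE) in untreated cells. A different Fcgr2b probe set read 36.2 to 118 in the cells and 241 to 585 in lung, so the sets disagreed on the level in cells and not on the direction. Fcgr1, the high-affinity receptor, had signal in the cells. It read 66.7, 47.8 and 74.8 in untreated and 54.3, 63.3 and 48.3 in antibody-treated cells, against 231, 285 and 425 in lung, a difference of -1.71 ± 0.15 (SE) for untreated cells. Its other probe set read at most 14.9 in the cells and 91.6 to 277 in lung. Trem2, a lipid receptor that signals through DAP12, read 17.8, 17.9 and 17.6 in untreated cells, 13.1, 10.9 and 7.24 in antibody-treated cells and 65.7, 101 and 148 in lung. All its cell values were below the 40th percentile, and its difference from lung was -1.57 ± 0.18 (SE) in untreated cells.

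The complement chains C1qa, C1qb and C1qc, which assemble the recognition molecule of the classical pathway and are made mainly by macrophages, adjoin each other on chromosome 4 (C1qb at chr4:136880126-136886200, C1qc at chr4:136889801-136892936 and C1qa at chr4:136895916-136898844). C1qa read 0.00156 to 0.00439 over the 6 cell arrays and 924, 1123 and 1395 in lung. C1qb read 0.00217 to 4.14 in the cells and 475, 671 and 820 in lung. C1qc read 0.0127 to 6.51 in the cells and 616, 767 and 1022 in lung. None of the 3 was above the percentile on any cell array, and all 3 were lower in both cell groups. In untreated cells the differences were -6.19 ± 0.11, -5.13 ± 0.14 and -5.41 ± 0.14 (SE; the largest limma adjusted p of the 3 was 3.33e-20).

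The genes of pattern recognition had signal in the cells. Cd14, the co-receptor for bacterial lipopolysaccharide, read 358, 335 and 269 in untreated cells and 291, 290 and 269 in antibody-treated cells. Lungs read 698, 1024 and 1950. The cells were clearly above background and below every lung, a difference of -1.62 ± 0.16 (SE; limma adjusted p = 2.44e-09). Tlr4, the receptor for lipopolysaccharide itself, read 92.9, 89.3 and 71.6 in untreated cells, 116, 127 and 58.6 in antibody-treated cells and 70.6, 156 and 195 in lung. The ranges overlapped, and its difference of -0.43 ± 0.19 (SE; limma adjusted p = 0.0418) was under 2-fold. A further Tlr4 probe set read 45.1 to 84.0 on the cell arrays, below every lung array (94.7 to 177), so the sets disagreed on the overlap. Tlr2, the receptor for bacterial lipoproteins, read 45.7, 51.3 and 26.6 in untreated cells, 60.8, 54.6 and 30.9 in antibody-treated cells and 190, 266 and 400 in lung, a difference of -2.08 ± 0.19 (SE). Tlr2 was thus below every lung in all 6 cell samples.

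The integrin alpha chains of the complement receptors, Itgam (CD11b) and Itgax (CD11c), are neighbours on chromosome 7 (chr7:128062640-128118491 and chr7:128129526-128150657) and were at background in the cells. Itgam read 1.11 to 5.00 in the cells and 43.0, 70.2 and 151 in lung. Itgax read 2.87 to 12.7 in the cells and 388, 504 and 1225 in lung. Both were lower in untreated cells, by -2.15 ± 0.19 and -4.57 ± 0.27 (SE).

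Csf1r, the CSF1 receptor on which most macrophages depend, had signal on all 6 cell arrays. It read 600, 623 and 379 in untreated cells, 519, 545 and 332 in antibody-treated cells and 1984, 2681 and 2993 in lung. Every cell array was above background and below every lung, with differences of -2.25 ± 0.13 and -2.42 ± 0.13 (SE; limma adjusted p = 8.88e-14 and 2.37e-14). The other Csf1r probe sets gave signal too, with 103 to 219 and 99.7 to 173 in the cells and 697 to 1108 and 375 to 616 in lung. The chains of the GM-CSF receptor were lower. Csf2ra, the ligand-binding chain, read 54.6, 59.8 and 49.2 in untreated cells, 75.9, 55.5 and 64.6 in antibody-treated cells and 480, 720 and 931 in lung, a difference of -3.08 ± 0.14 (SE). Csf2rb, the signalling chain, read 29.3, 8.78 and 7.37, then 63.1, 30.1 and 9.91, and 502, 722 and 1312 in lung, a difference of -4.51 ± 0.28 (SE). It was above the percentile on 3 of the 6 cell arrays. Untreated arrays 2 and 3 lay below it, so the size of the difference depends on the offset. The other Csf2rb probe set read 0.238 to 14.1 in the cells, below the percentile on all 6 arrays, and 82.8 to 341 in lung. The sets thus disagreed on signal in the cells and not on the direction. Spi1 read 14.9 to 25.7 in the cells, below the percentile on all 6 arrays, and 224, 320 and 438 in lung, a difference of -2.94 ± 0.15 (SE).

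Of the genes for lysosomal enzymes, microbial killing and macrophage membranes, 7 of 8 were lower in untreated cells and Ctsk did not pass. Lyz2, lysozyme, which alveolar type 2 cells also make, read 4.27, 5.42 and 9.87 in untreated cells, 31.0, 12.5 and 8.16 in antibody-treated cells and 6514, 9533 and 10280 in lung. Its difference of -8.59 ± 0.13 (SE; limma adjusted p = 2.92e-25) rests on cell values near background. Mpeg1, a pore-forming protein of phagosomes, read at most 0.22 in the cells and at least 1997 in lung, a difference of -7.37 ± 0.14 (SE). Cybb, the catalytic subunit of the phagocyte oxidase, read 0.429 to 25.4 in the cells and at least 906 in lung, Laptm5, a lysosomal membrane protein of blood cells, at most 12.9 against at least 1142, and Aif1 (IBA1), an actin-bundling protein, at most 5.51 against at least 91.3.

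The cysteine proteases Ctsk and Ctss are neighbours on chromosome 3 (chr3:95499210-95509387 and chr3:95526786-95556405) and differed in the cells. Ctss, cathepsin S, read at most 2.14 on the cell arrays and 3741, 4224 and 7598 in lung, a difference of -8.05 ± 0.13 (SE). Ctsk, cathepsin K, which osteoclasts and fibroblasts also make, read 142, 156 and 173 in untreated cells, 244, 210 and 166 in antibody-treated cells and 172, 296 and 876 in lung. Its ranges touched, with a difference of -0.72 ± 0.30 (SE; limma adjusted p = 0.0344) that was under 2-fold. Cd68, a lysosomal glycoprotein, read 123, 97.1 and 79.8 in untreated cells, 143, 87.3 and 104 in antibody-treated cells and 381, 550 and 1652 in lung. Its cell arrays had signal and lay below every lung, a difference of -2.18 ± 0.31 (SE).

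**Figure D2:**
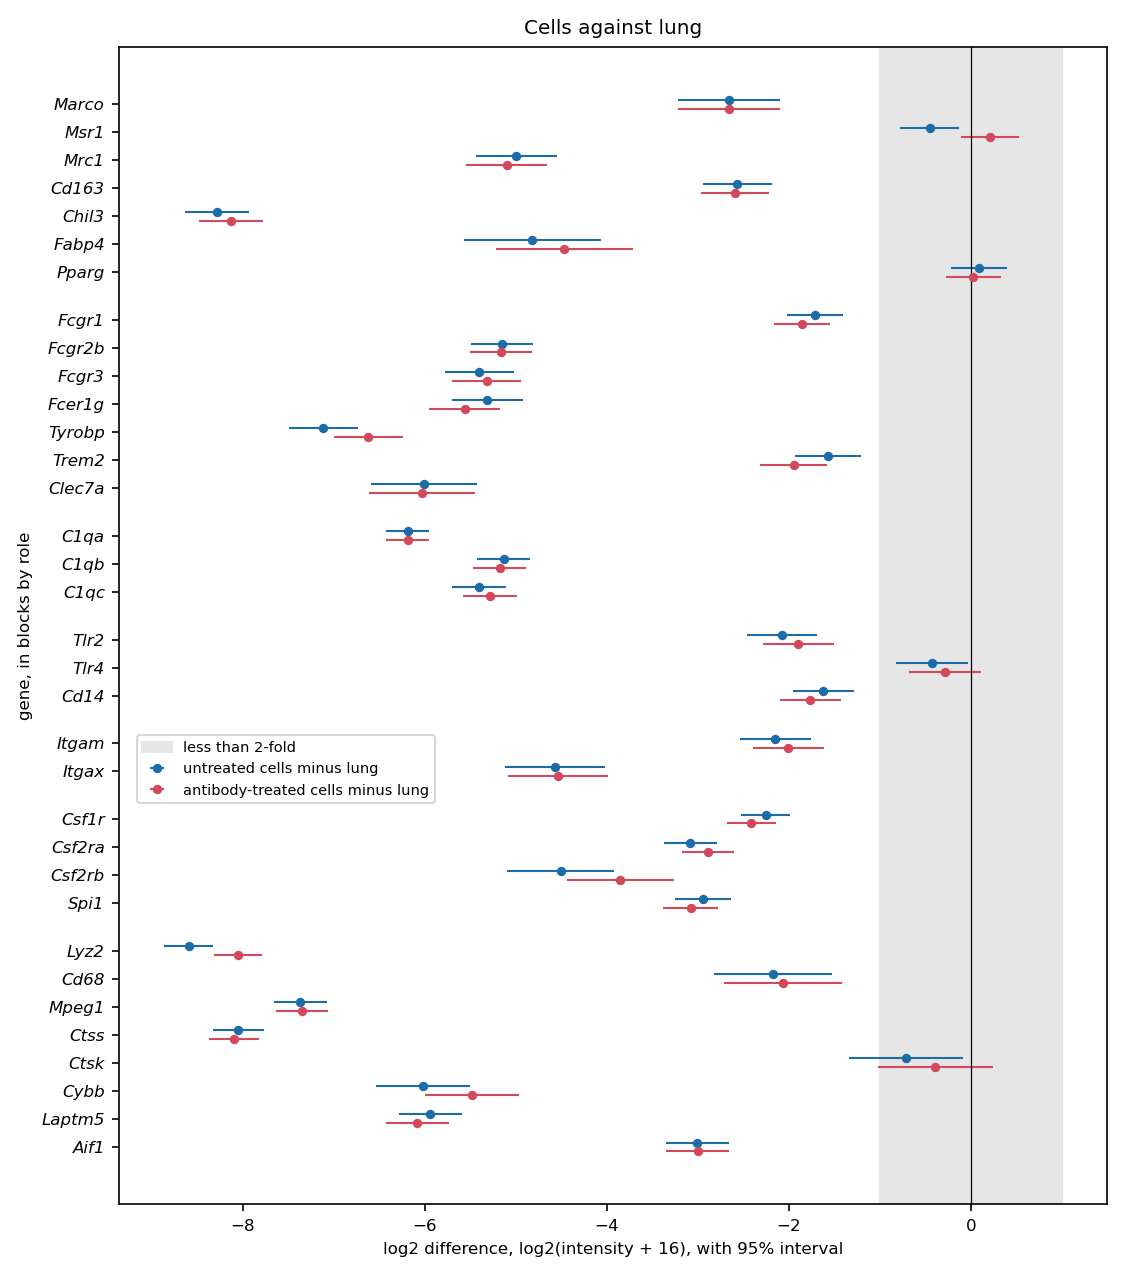
Log2 difference of each cell group from lung for the 34 members, with 95% intervals (limma), untreated cells in blue and antibody-treated cells in red, and the range under 2-fold in grey. Lyz2 lies at -8.59, Chil3 at -8.28 and Ctss at -8.05 in untreated cells, sizes that depend on the offset, and Msr1, Pparg, Tlr4 and Ctsk lie in or across the grey range.

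Most markers of other blood cells, of endothelium and of lung epithelium were lower in the cells too, where 23.8% of all genes tested were. Of 8 pan-leukocyte markers, 8 were lower in untreated cells, among them Ptprc (CD45, -7.08) and Cd52 (-6.69), and Ptprc read at most 1.33 on any cell array. The summed intensity of the 8 was 305 to 472 on the cell arrays and 10939 to 16169 on the lung arrays, and 4 of them (Ptprc, Cd52, Cd48 and Rac2) read under 20 on all 6 cell arrays. Neutrophil markers were lower in 7 of 7 tested, lymphocyte markers in 7 of 7 and dendritic cell markers in 5 of 7. The neutrophil marker Camp did not pass the filter and overlapped, with 14.6 to 22.7 in the cells and 16.7 to 35.6 in lung. The other dendritic cell markers, Xcr1 (0.77; 55.6 to 65.2 in the cells and 30.6 to 50.5 in lung) and Flt3 (-0.38), were under 2-fold. Endothelial markers were lower in 6 of 6, with sums of 66.0 to 87.6 in the cells and 10967 to 22446 in lung. Alveolar type 2 markers were lower in 5 of 5 tested, epithelial markers in 6 of 6 and erythroid markers in 3 of 3. Fibroblast markers differed from these lists, with 3 of 6 lower and 1 higher, where 17.8% of all genes tested were higher. The higher one was Col1a1 (1.16), a gene named after its value was seen. The part of these cell types in the differences of the members was not tested.

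Of 12 further macrophage markers, 9 were lower in untreated cells, with a median of -2.97. Cd36, a scavenger receptor for lipids, differed by -7.98 and Apoe, a lipoprotein, by -5.49, and the size for Cd36, at most 7.22 in the cells, depends on the offset. In antibody-treated cells 9 were lower and 1, Gpnmb, was higher (1.22), a gene named after its value was seen. Gpnmb differed by 0.89 in untreated cells, under 2-fold, and by 0.32 between antibody-treated and untreated cells (limma adjusted p = 1.00). Among the factors that act on the receptors of the set, 2 of 3 tested were higher in untreated cells, where 17.8% of all genes were. Csf1, the ligand of Csf1r, read 451 to 1198 in the cells and 134 to 338 in lung, a difference of 1.38 ± 0.22 (SE; limma adjusted p = 5.06e-06) in untreated cells. Csf2, which encodes GM-CSF, read 137 to 732 in the cells and 42.7 to 218 in lung, a difference of 2.06 ± 0.35 (SE; limma adjusted p = 1.11e-05). In antibody-treated cells the differences were 1.58 and 2.29. The third, Il34, the other ligand of Csf1r, read 27.8 to 55.8 in the cells and 82.1 to 152 in lung, with differences of -0.76 and -0.88 that were under 2-fold.

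Signalling genes downstream of the Fc receptors and adaptors were lower in 7 of 8 cases, among them Inpp5d, a lipid phosphatase (-4.06), and Fgr, a Src family kinase (-3.40). The partners of Cybb in the oxidase were lower in 5 of 5, with Cyba, its membrane partner, at -7.20 and Rac2, a small GTPase, at -4.49. Of 7 further macrophage transcription factors 5 were lower, including Cebpa (-4.85) and Ikzf1 (-4.51). In contrast, of 11 lysosomal genes that most cells express, 1 was lower, Ctsh (-2.43), and the median was 0.03, with Lamp1 at -0.85, under 2-fold. Of 10 genes of the Toll-like receptor pathway 2 were lower, Tlr3 (-2.66) and Tlr1 (-1.20), and 1, Ly96, the partner of TLR4 named after its value was seen, was higher (1.11). The adaptors Myd88, Tirap and Ticam1 did not pass.

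**Figure D3:**
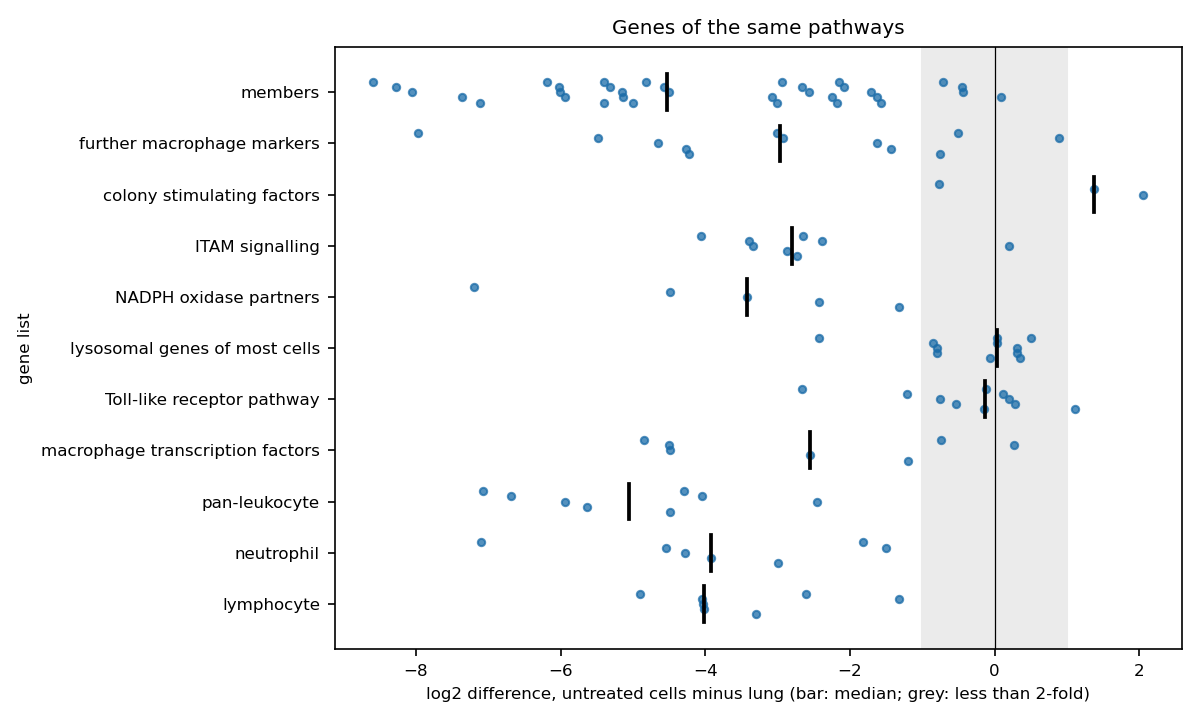
Log2 difference of untreated cells from lung for the 34 members, genes of related pathways and markers of other blood cells, 1 point a gene, with the median as a bar and the range under 2-fold in grey. The members' median is -4.54, that of the lysosomal genes of most cells is 0.03, and Csf1 (1.38) and Csf2 (2.06) lie to the right.

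The antibody comparison asked whether treatment changed the sorted cells. No member was called at an adjusted p under 0.05. Only the 12 members with signal could be tested, 0 of 12 passed, and 0.0236% of 12711 genes did. At an unadjusted p under 0.05 there was 1 member and 94 genes. The median difference was 0.16, against -0.02 over all genes, with 8 members positive and 4 negative. For 10 of the 12 the 95% interval lay within 2-fold in either direction, and the exceptions were Fabp4 (-0.38 to 1.07) and Csf2rb (-0.32 to 1.63). Changes of 2-fold or more in the other 22 members could be missed, since nearly all of their values lay below the percentile.

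Msr1 had the smallest p of the set. Its 3 antibody-treated values (44.9 to 55.7) lay above its 3 untreated values (25.9 to 31.4), a difference of 0.66 ± 0.14 (SE; 95% interval 0.34 to 0.99) with an unadjusted p = 0.00126 in limma and an adjusted p of 1.00. Antibody-treated arrays lay above all untreated arrays for 1 of 12 members and for 1.24% of all genes tested, and below them for 0 of 12 members and 1.68% of all genes. Over 16 alternative settings and left-out arrays its difference was 0.23 to 0.88, and its smallest adjusted p was 0.12, with array weights. The 3 other Msr1 probe sets read near or below the percentile on most cell arrays and give no further reading of this difference. They read 19.1 to 24.2, 1.48 to 4.25 and 9.77 to 17.3 in untreated cells and 16.04 to 29.3, 2.96 to 4.11 and 9.81 to 22.7 in antibody-treated cells.

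The next smallest p among positive differences were those of Ctsk (0.32 ± 0.16, SE) and Csf2rb (0.65 ± 0.43). In Csf2rb, the antibody-treated values of 63.1, 30.1 and 9.91 overlapped the untreated values of 29.3, 8.78 and 7.37. Among negative differences they were those of Cd14 (-0.14 ± 0.14), Fcgr1 (-0.15 ± 0.18) and Csf1r (-0.16 ± 0.23), and each of these had overlapping groups. The sign of Csf1r turned to 0.045 without antibody-treated array 3, which had the lowest value of its group, 332. Of the pathway and marker lists, 0 genes passed in this comparison.

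**Figure D4:**
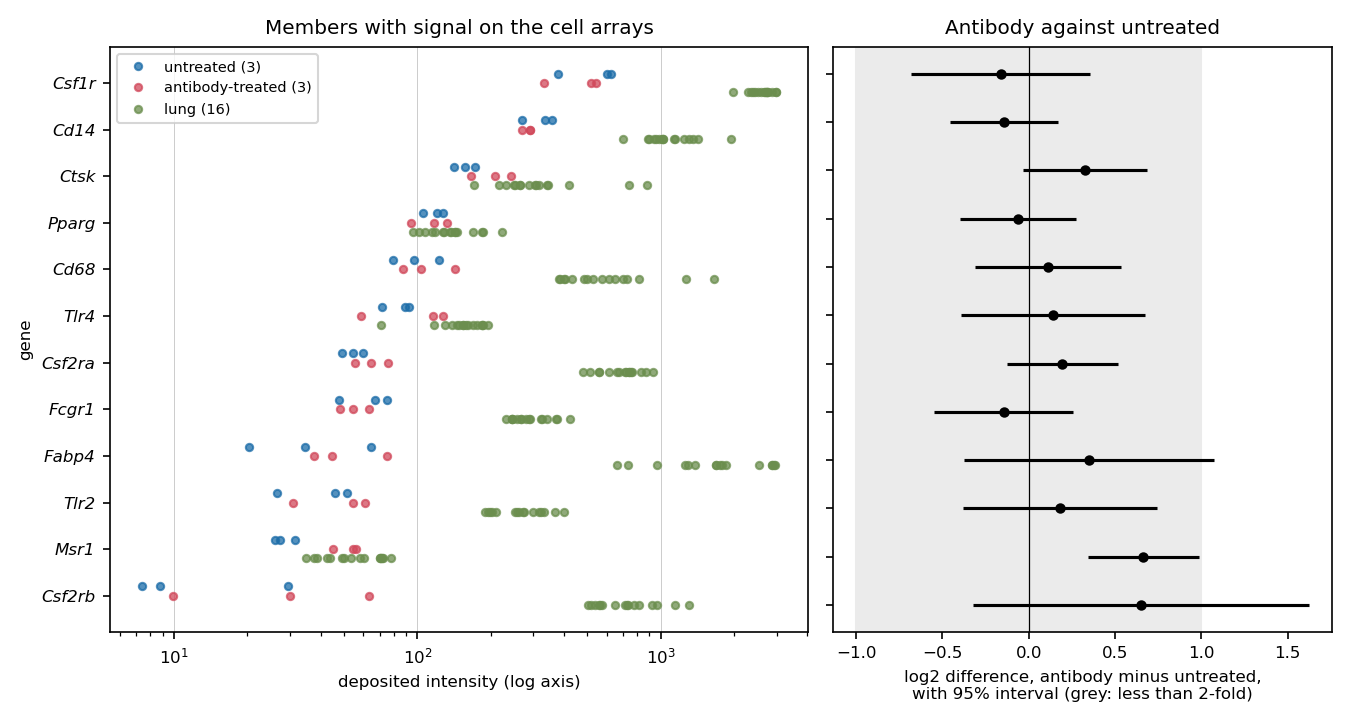
Left, deposited intensity (log axis) of the 12 members with signal on the cell arrays, 1 point an array; right, log2 difference of antibody-treated from untreated cells with 95% intervals (limma). Msr1 lies at 0.66 with an interval of 0.34 to 0.99, and the intervals of the other 11 cross 0.

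Among the lungs, the median SD over the 16 arrays on the log2 scale was 0.32 for the members and 0.20 for all genes tested. Without the arrays labelled male 3 and male 4, an alternative chosen after seeing the data, the medians were 0.26 and 0.18. After normalization the arrays labelled male 3 and male 4 were the highest pair of the 16 for 16 of 34 members, 47.1%, and for 9.58% of 14392 genes. Ctsk read 745 and 876 on these arrays and 172 to 420 on the 14 others. Cd68 read 1270 and 1652 against 381 to 818, and Clec7a 3031 and 3337 against 924 to 1613. Itgax (1146 and 1225 against 388 to 663), Mrc1 (1633 and 1762 against 544 to 945) and Marco (186 and 146 against 28.4 to 130) were also separate, while Lyz2, C1qa and C1qc on these arrays lay within the range of the others. Fabp4 had its lowest lung value, 662, on male 3, and Csf1r its lowest, 1984, on male 4.

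On the same arrays the median log2 deviation of the endothelial markers was -0.58 and -0.85, that of lymphocyte markers -0.60 and -0.45, that of the lysosomal genes of most cells 0.45 and 0.38 and that of epithelial markers 0.26 and 0.54. The neutrophil markers were high on other arrays, with median deviations of 1.30, 1.77, 1.12 and 1.92 on male 2, male 5, male 7 and male 8. Itgam, which neutrophils also express, read 151 and 135 on male 5 and male 8 and 43.0 to 102 on the 14 other lungs. Cd163 read 195 and 162 there, its highest values of the 16. The part of these cell types in the members' values was not tested.

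**Figure D5:**
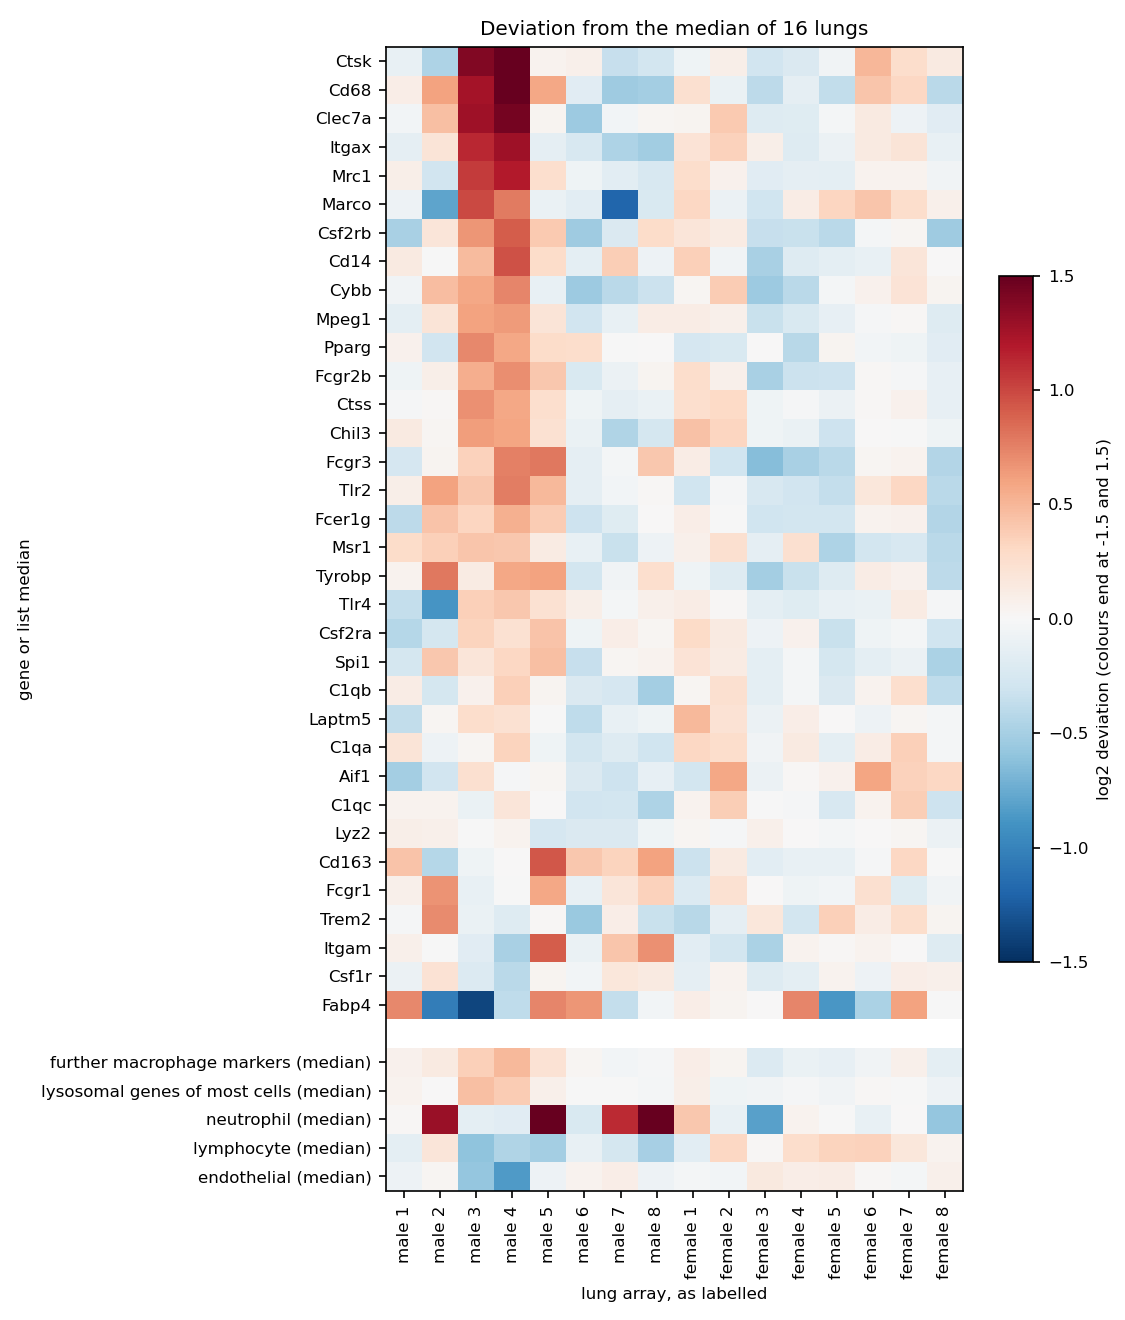
Log2 deviation of each member from its median over the 16 lungs, by array as labelled, with the median deviation of 5 marker and pathway lists below; red is higher and blue lower. Male 3 and male 4 are red for members such as Ctsk, Cd68 and Clec7a, and the neutrophil markers are red on male 2, male 5, male 7 and male 8.

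Between female-labelled and male-labelled lungs, 0 of 34 members passed at an adjusted p under 0.05 (limma), and 0.0486% of 14392 genes did. At an unadjusted p under 0.05 there were 7 members and 1522 genes. Female-labelled lungs lay wholly above male-labelled ones for 0 members and 0.0486% of genes, and wholly below for 0 members and 0.0625% of genes. The median difference, female minus male, was -0.20 against 0.00 for all genes, and all 34 intervals lay within 2-fold. Without male 3 and male 4 the median was -0.037 and 0 of 34 passed. Tyrobp (-0.45 ± 0.14, SE; adjusted p = 0.218), Fcgr3 (-0.50 ± 0.15) and Tlr2 (-0.42 ± 0.14) had the smallest p among negative differences, and Aif1 (0.34 ± 0.13), C1qa (0.16 ± 0.10) and Laptm5 (0.13 ± 0.10) among positive ones. Without male 3 and male 4 these differences were -0.42, -0.39 and -0.31, and 0.43, 0.24 and 0.23, with adjusted p of 0.188 to 0.415. In 8 lungs a group, Tyrobp read 1784 to 2793 in female-labelled and 2278 to 4291 in male-labelled samples, so the ranges overlapped.

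Probe sets that had not been chosen gave a further reading of 13 members. Of 28 such sets, 25 had a lower mean in untreated cells than in lung, and all 6 cell arrays lay below every lung array for 20. The 19 sets with signal on at least 8 lung arrays were all lower in untreated cells. They were picked for signal in lung, so this count is a description. Some members had several of these sets, and no share over all probe sets was counted beside these numbers. The 3 sets that were not lower belonged to Fabp4, Tlr4 and Laptm5 and were dim in lung, with medians of at most 29.2.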

How the data were processed

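The deposited values are PLIER probe set intensities on a linear scale, per the submitters' processing notes; its settings and any scaling by the authors are not given in the sources used here. Of all array pairs, 0 held identical values. After leaving out 64 control sets, intensities were taken as log2(intensity + 16), quantile normalized over 22 arrays and reduced to 1 probe set a gene. A gene was tested if above the 40th percentile on at least 3 compared arrays. Tests were those of limma 3.58.1 under R 4.3.3 (two-sided, variance trend, Benjamini-Hochberg adjustment over all genes tested at 0.05; against lung also at least 2-fold), checked on simulated data. The cells were compared on 6 arrays, each cell group with the mean of both lung groups on 22, and the lungs on 16. Members, lists and tests were chosen with earlier results of these data known. All members are described. Of the pathway lists and the pan-leukocyte list the 2 genes farthest from lung are named, with some further genes. Genes named from the other marker lists were not picked by this rule. For the antibody and sex comparisons the 3 members of smallest p in each direction are named. Gene symbols come from the platform annotation, and positions and promoter windows from RefSeq (GRCm38.p6). Alternatives were other normalizations, offsets, filters, probe set means, variance models, a replicate block and left-out arrays. The number of arrays limits precision.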

Additional observations from a re-analysis of the deposited data

How the results depend on the processing

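The count of members lower than lung was 30 in both cell groups under every alternative run except an offset of 64, where it was 28 and 29: Trem2 (-0.90) and Itgam (-0.99 and -0.95) were then under 2-fold. The counts of 0 members in the antibody and sex comparisons held under every alternative run. Directions turned for members that had not passed: without normalization between arrays Pparg was -0.20 (untreated) and -0.25 (antibody-treated) against lung and Msr1 -0.071 (antibody-treated). With all probe sets of Msr1 averaged it was -0.33. Without antibody-treated array 3, Pparg was -0.072 against lung. Between antibody-treated and untreated cells, Csf1r ranged from -0.35 to 0.045 when single arrays were left out. The cause was not tested.

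Over all genes, the 7 calls between female and male lung became 15 with median centring, 4 without a filter, 24 with a 60th percentile filter, 4 without the variance trend, 79 with array weights and 45 without male 3 and male 4. The 3 calls of the antibody comparison became 1 with an offset of 1 and ranged from 0 to 3 when single arrays were left out, with 0 without untreated array 3 and 1 without untreated array 1. Same-numbered untreated and antibody-treated samples correlated at -0.26 to 0.068 in their deviations, and not every sample correlated best with its own number. With the replicate number as a block, antibody calls were 2 and sex calls 1, and no member's call changed. The median of all genes in untreated and antibody-treated cells against lung was -0.15 and -0.18 without normalization and 0.12 and 0.09 with median centring. Members near background in the cells have no measured level there, so the size of their differences depends on the offset.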
